A study of Sus scrofa with 24 samples.

Results

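The myogenic regulators and myostatin were followed here in pigs from late gestation to 188 days of age. The group was defined by name: MYOD1, MYOG, MYF5, MYF6, PAX7, MEF2C, MEF2A, MSTN and ID1. A probe set, which is a group of short array probes that report 1 transcript, was taken when the platform annotation gave it a single gene symbol and that symbol was a name of the group. Of the 9 genes, 6 had a probe set, with 10 probe sets in all among 23935 tested probe sets and 6765 genes with a symbol. MYOD1, MYF6, MEF2A and MSTN had 2 probe sets each, MYF5 and ID1 had 1 each, and MYOG, PAX7 and MEF2C had none under their symbol and are not analysed here. The 24 arrays came from offspring of German Landrace gilts, all of which had received a high protein (HP) diet during gestation, so that diet does not vary among the animals compared. There were 4 stages with 6 animals each: fetuses at 94 days post conception (94 dpc) and piglets or young pigs at 1, 28 and 188 days after birth (1 dpn, 28 dpn and 188 dpn). The offspring of 3 gilts were used at each stage, and neither the mother nor the sex of an animal is given, so animals that share a mother count as independent and the p-values are too small by an unknown amount. The sample labels name liver as the tissue, whereas the title of the series names muscle.

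Skeletal muscle is built by a small family of DNA-binding proteins that act in sequence. MYF5 and MYOD1 commit precursor cells to the muscle lineage, MYOG drives the committed myoblasts into differentiation, and MYF6, also called MRF4, is the member best known from mature fibres. They bind DNA as pairs with ubiquitous E proteins, and ID1, which lacks a DNA-binding part, captures those E proteins and holds the pair apart. The MEF2 proteins, MEF2A among them, work beside the myogenic factors and later maintain the genes of the contractile and metabolic apparatus. PAX7 marks the satellite cells, the resident stem cells of the fibre. Myostatin, the product of MSTN, is a secreted member of the TGF-β family that limits muscle growth.

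The arrays carried a strong muscle signal at every stage. The summed intensity of 8 skeletal muscle markers lay between 180644 and 492343 on all arrays, and none of these markers was under background on all arrays of a stage. The summed intensity of 10 liver markers ranged from 1232 to 185136 within 188 dpn (median 15778). There ALB, the gene of serum albumin, was above 10000 on the arrays of animals 1, 2 and 3. It was between 80.1 and 281 on those of animals 4, 5 and 6. Liver marker signal was not confined to 188 dpn. Every fetus had a liver marker sum of 7825 or more, with a median of 24116 and a maximum of 56721. The sum spanned 2767 to 28515 among arrays of 1 dpn. Arrays of 28 dpn had the narrowest range, 3031 to 7094. At 1 dpn the arrays of animals 1, 2 and 3 had a ratio of 5′ to 3′ signal of the control transcript GAPDH between 0.111 and 0.296, against 0.841 to 1.14 for animals 4, 5 and 6, a sign of RNA quality. On a second pair of GAPDH control probe sets animals 1, 2 and 3 read 0.424 to 0.617, against 0.907 to 0.996 for animals 4, 5 and 6. The arrays of 28 dpn read 0.6145 to 0.7355 on that pair, so 1 dpn animal 3 lay within their range. Values without the low 5′ arrays of 1 dpn or the high ALB arrays of 188 dpn are given beside most differences between neighbouring stages. Background was taken as an intensity of 74.7, the 95th percentile of 17 control probe sets to which nothing should bind. In these whole tissue samples, fewer cells of a type and less RNA per cell cannot be told apart.

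Each of the 6 measured genes differed over the 4 stages (F test of limma, adjusted p at most 2.62e-05), and so did 65.1% of all genes with a symbol. The genes did not move as a block. MYOD1, MYF5 and ID1 were highest before birth and lowest at 188 dpn, MYF6 and MEF2A were highest at 188 dpn, and MSTN was lowest at 1 dpn. From 94 dpc to 1 dpn 5 of the 6 genes fell and none rose, where 37.8% of all genes with a symbol passed the same test, 20.7% as lower. With centred arrays 2 of the 6 fell at birth, and 3 without the low 5′ arrays. From 1 to 28 dpn 3 genes rose and none fell, against 26.7% of genes called, 13.3% as higher and 13.4% as lower. From 28 to 188 dpn 2 genes rose and 2 fell, against 20.4% called. Between the ends of the series, 94 dpc and 188 dpn, 2 genes rose and 3 fell, against 50.0% called. Across the pairs of stages further apart, 3 genes fell from 94 dpc to 28 dpn (36.9% of genes called), and 3 rose and 3 fell from 1 to 188 dpn (44.8% called). Of the former, MYOD1 and ID1 lost the call with centred arrays. Of the latter, MYF5 lost it without 3 doubted arrays of 1 dpn (-0.65, adjusted p = 0.199) and without 3 of 188 dpn (-1.38, adjusted p = 0.0663). The values of the 2 stages did not overlap for 1, 2, 4 and 5 of the 6 genes in the 3 steps between neighbouring stages and between the ends of the series, and for 18.9%, 12.9%, 18.4% and 38.9% of all genes.

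**Figure D1:**
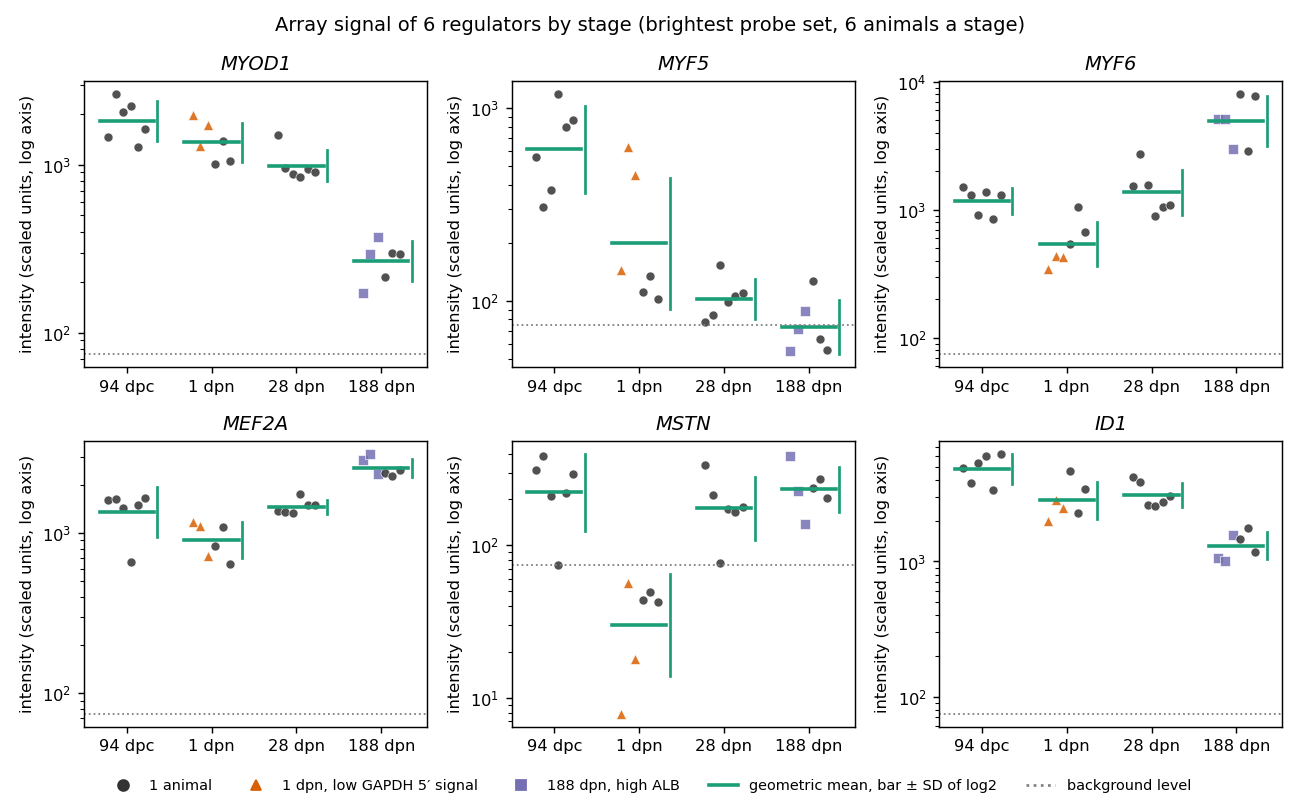
Array intensity (scaled units, log axis) of the brightest probe set of 6 regulators at 94 dpc, 1, 28 and 188 dpn. Points are animals, with 1 dpn arrays of low GAPDH 5′ signal as triangles and 188 dpn arrays of high ALB signal as squares; horizontal lines are geometric means of 6 animals, vertical bars ± SD of log2, and the dotted line is the background level of 74.7. MYOD1 stepped down to 266 at 188 dpn, MYF6 stepped up to 4922, and MSTN lay under background in every animal of 1 dpn.

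The trimmed means of the deposited arrays were alike but their median probe set differed between stages, and this bears on the directions below. The median difference over all probe sets was -0.15 on the log2 scale from 94 dpc to 1 dpn, 0.02 from 1 to 28 dpn, -0.18 from 28 to 188 dpn and -0.29 from 94 dpc to 188 dpn. It became 0.17, -0.04, 0.09 and 0.25 after the arrays had each been centred on the median. Among the probe sets called from 94 dpc to 1 dpn, 32.8% were higher as deposited, 47.7% after quantile normalization and 59.2% after centring. The corresponding shares were 56.0%, 52.5% and 49.5% from 1 to 28 dpn, 28.2%, 42.0% and 62.9% from 28 to 188 dpn, and 31.3%, 48.9% and 60.8% from 94 dpc to 188 dpn. The value with centred arrays is therefore given beside the main differences.

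MYOD1, which commits cells to the muscle lineage, was lowest at 188 dpn on both of its probe sets, which differed in their course around birth. Its brighter probe set, Ssc.22906.1.A1_at, read 1284 to 2638 at 94 dpc (median 1856), 1004 to 1985 at 1 dpn (median 1336) and 843 to 1506 at 28 dpn (median 925). At 188 dpn it read 172 to 371 (median 294), below every animal of the other stages. The geometric means were 1831 (SD 0.39 on the log2 scale, n = 6), 1362 (SD 0.39), 986 (SD 0.31) and 266 (SD 0.40) in order of age. The neighbouring pairs 94 dpc and 1 dpn (adjusted p = 0.16) and 1 dpn and 28 dpn (adjusted p = 0.151) did not pass the test, while 28 dpn was lower than 94 dpc by a log2 difference of -0.89 ± 0.22 (SE, adjusted p = 0.00427). That difference was -0.63 with centred arrays (adjusted p = 0.0579).

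The fall of MYOD1 from 28 to 188 dpn was -1.89 ± 0.22 on the log2 scale, or 3.70-fold (adjusted p = 5.71e-06), and -1.62 with centred arrays. Against 94 dpc it came to -2.78 ± 0.22, or 6.88-fold (adjusted p = 1.43e-09). All 6 animals of 188 dpn were lower than the mean of the earlier stage in each case, and the difference from 28 dpn was -1.89 without the 3 arrays of high ALB signal. The other probe set, SscAffx.10.1.S1_at, gave a different course around birth: it stood at 592 (SD 0.35) at 94 dpc, 165 (SD 0.56) at 1 dpn, 194 (SD 0.52) at 28 dpn and 20.5 (SD 1.78) at 188 dpn, where 5 of 6 arrays were under background. It fell by 1.84 on the log2 scale from 94 dpc to 1 dpn (SE 0.55, adjusted p = 0.0132), a step that the brighter probe set did not pass and that quantile normalization took above the threshold (-1.52, adjusted p = 0.0564), and both probe sets fell from 28 to 188 dpn. With the probe sets averaged MYOD1 had a called fall at birth (-1.13, adjusted p = 0.0123), and the brighter one alone differed by -0.69 (adjusted p = 0.0568) without the low 5′ arrays. Over the 24 arrays the log2 values of the 2 probe sets had a Pearson correlation of 0.87, as a description. Of 3 smooth muscle markers measured, ACTA2 was lower at 188 dpn than at 94 dpc (18548 to 5715), while CNN1 (adjusted p = 0.129) and TAGLN (adjusted p = 0.0726) did not pass. Their summed intensity, most of it ACTA2, was 16455 to 26283 at 94 dpc and 6230 to 8318 at 188 dpn. Their part in the MYOD1 result was not tested.

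MYF5, the other commitment factor, passed the test for a fall at birth. The only probe set, Ssc.27397.1.A1_at, read 306 to 1183 at 94 dpc (median 677), 102 to 627 at 1 dpn (median 139), 77.4 to 153 at 28 dpn (median 102) and 54.6 to 127 at 188 dpn (median 67.0). All arrays of 28 dpn were lower than all of 94 dpc, and at 188 dpn 4 of 6 arrays lay under background. The geometric means were 611 (SD 0.75), 199 (SD 1.12), 102 (SD 0.35) and 73.0 (SD 0.47). From 94 dpc to 1 dpn MYF5 fell by 1.62 on the log2 scale (SE 0.41, adjusted p = 0.00449), or 3.08-fold, and 5 of 6 animals were lower than the mean of 94 dpc. The difference was -1.30 with centred arrays (adjusted p = 0.0234).

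MYF5 was spread widely at 1 dpn. The 3 arrays of low 5′ signal read 144, 627 and 448 for animals 1, 2 and 3, and the other 3 read 102 to 134. Animal 1, with the lowest GAPDH ratio, read close to the latter. Without the 3 low 5′ arrays the difference from 94 dpc was -2.41 (adjusted p = 7.84e-05), and the remaining gap from 1 to 28 dpn shrank from -0.96 (adjusted p = 0.11) to -0.17 (adjusted p = 0.832). Neither 1 and 28 dpn nor 28 and 188 dpn (-0.49 ± 0.41, adjusted p = 0.507) passed the test, and the signal near background limits what could be seen there. Over the whole span MYF5 fell (adjusted p = 2.51e-06), with no overlap between 94 dpc and 188 dpn. The fitted log2 difference of -3.06 uses 4 readings under background, and with these held at the background level the mean of 188 dpn was 83.8. Proliferation markers also fell at birth, in 6 of 6 genes measured, with a summed intensity of 11742 to 14944 at 94 dpc and 1471 to 4082 at 1 dpn, against 20.7% of all genes lower. From 1 to 28 dpn 5 of the 6 rose, against 13.3% of all genes. Their part in the MYF5 result was not tested.

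MYF6, the factor of mature fibres, took the opposite course over the whole span. Its probe set Ssc.16626.1.S1_at read 850 to 1499 at 94 dpc (median 1308), 344 to 1050 at 1 dpn (median 489), 894 to 2718 at 28 dpn (median 1313) and 2872 to 8038 at 188 dpn (median 5142). Every animal of 188 dpn was higher than every animal of the other stages. The geometric means were 1182 (SD 0.34), 539 (SD 0.58), 1371 (SD 0.58) and 4922 (SD 0.64). From 28 to 188 dpn MYF6 rose by 1.84 ± 0.31 on the log2 scale, or 3.59-fold (adjusted p = 0.000298), by 2.11 with centred arrays and by 2.04 without the 3 arrays of high ALB signal. It rose 4.16-fold between 94 dpc and 188 dpn (adjusted p = 1.25e-05), while 94 dpc and 28 dpn differed by 0.21 ± 0.31 (adjusted p = 0.673) with a 95% confidence interval from -0.44 to 0.86.

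MYF6 had a dip at 1 dpn that kept its direction but lost its calls without the doubted arrays. It fell by 1.13 on the log2 scale from 94 dpc (SE 0.31, adjusted p = 0.00807) and rose by 1.35 to 28 dpn (SE 0.31, adjusted p = 0.00367). The 3 arrays of low 5′ signal read 344 to 434 and the other 3 read 544 to 1050. Without the former the differences were -0.70 (adjusted p = 0.184) and 0.91 (adjusted p = 0.115), and neither call was kept. The fall was also lost with centred arrays, at -0.81 (adjusted p = 0.062), whereas the rise from 28 to 188 dpn was kept in each of these settings.

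The other MYF6 probe set, Ssc.16626.1.A1_at, measured little. Its geometric means were 17.0, 56.1, 31.7 and 29.6 in order of age, with 6, 4, 4 and 5 of 6 arrays under background, and it passed no comparison between stages, although with centred arrays it was higher at 1 dpn than at 94 dpc (2.05, adjusted p = 0.0328). Its log2 values had a Pearson correlation of -0.20 with those of the brighter probe set over 24 arrays. When the 2 were averaged, the MYF6 difference at birth turned to 0.29 (adjusted p = 0.611) and the rises to 28 dpn (0.26, adjusted p = 0.701) and to 188 dpn (0.87, adjusted p = 0.137) were no longer called, so the MYF6 results rest on the 1 probe set with signal. In the reference assembly Sscrofa11.1 MYF5 and MYF6 are neighbours with 0 protein-coding genes between them, and their signals moved in opposite directions between 94 dpc and 188 dpn.

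**Figure D2:**
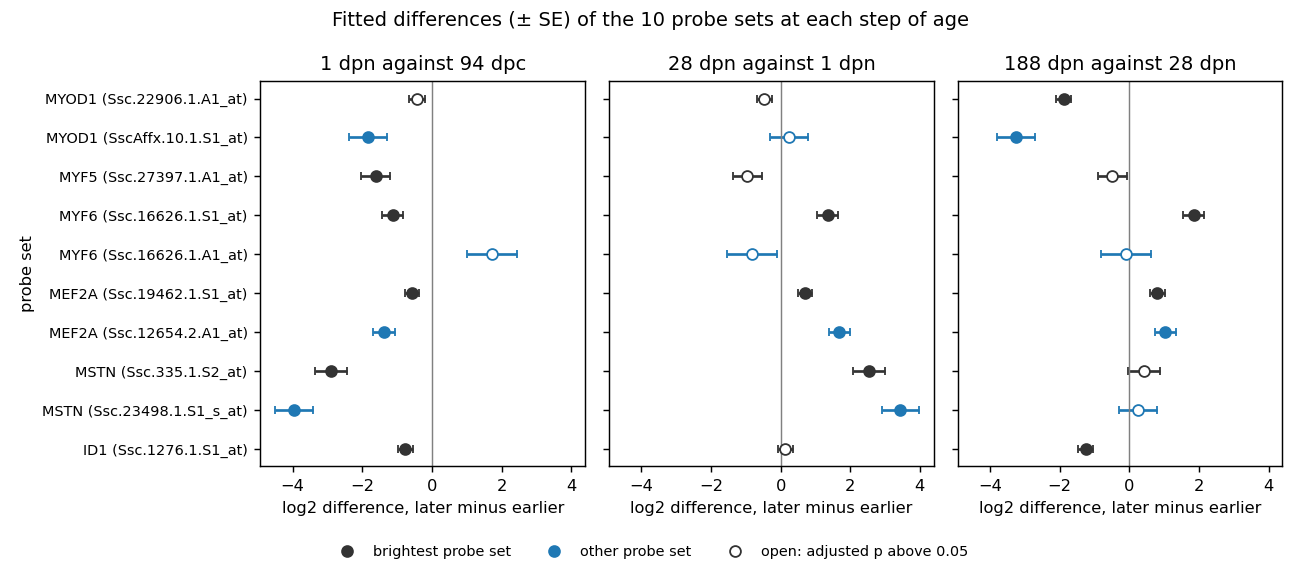
Fitted log2 differences (later minus earlier stage, bars ± SE) of all 10 probe sets for 1 dpn against 94 dpc, 28 dpn against 1 dpn and 188 dpn against 28 dpn. Black marks the brightest probe set of a gene, blue the other one, and open symbols an adjusted p above 0.05. The 2 probe sets of MEF2A and of MSTN pointed the same way at each step around birth, while those of MYF6 did not. Those of MYOD1 pointed apart from 1 to 28 dpn, where neither was called.

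The signals of the myogenic factors were also set against each other within each array, which removes the scaling of the array. For each animal the log2 signal of 1 gene was subtracted from that of another. The level of such a ratio has no meaning, since probes differ in brightness, but its change between stages does. The 3 ratios were chosen after the values had been seen, so they are given as a description, with no test.

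The mean ratio of MYF6 to MYOD1 was -0.63 (SD 0.44, n = 6) at 94 dpc, -1.34 (SD 0.84) at 1 dpn, 0.48 (SD 0.58) at 28 dpn and 4.21 (SD 0.91) at 188 dpn. It differed by -0.71 from 94 dpc to 1 dpn, and by -0.0074 once the 3 low 5′ arrays were left out. From 1 to 28 dpn it differed by 1.81 (1.11 without the low 5′ arrays), and the animals of these stages did not overlap. It differed by 3.73 from 28 to 188 dpn, and from 94 dpc to 188 dpn by 4.84. In both of these the stages could not overlap, since MYF6 was higher and MYOD1 lower in every animal of 188 dpn.

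The ratios to MYF5 are bounded at 188 dpn by what the array can detect, since MYF5 was under background there on 4 of 6 arrays. MYF6 relative to MYF5 differed by 0.49 from 94 dpc to 1 dpn (1.71 without the low 5′ arrays), by 2.30 from 1 to 28 dpn (1.08 without them), by 2.33 from 28 to 188 dpn and by 5.12 over the whole span. MYOD1 relative to MYF5 differed by 1.20 from 94 dpc to 1 dpn, 0.49 from 1 to 28 dpn and -1.40 from 28 to 188 dpn. Over the whole span it differed by 0.28, with overlap between 94 dpc and 188 dpn.

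**Figure D3:**
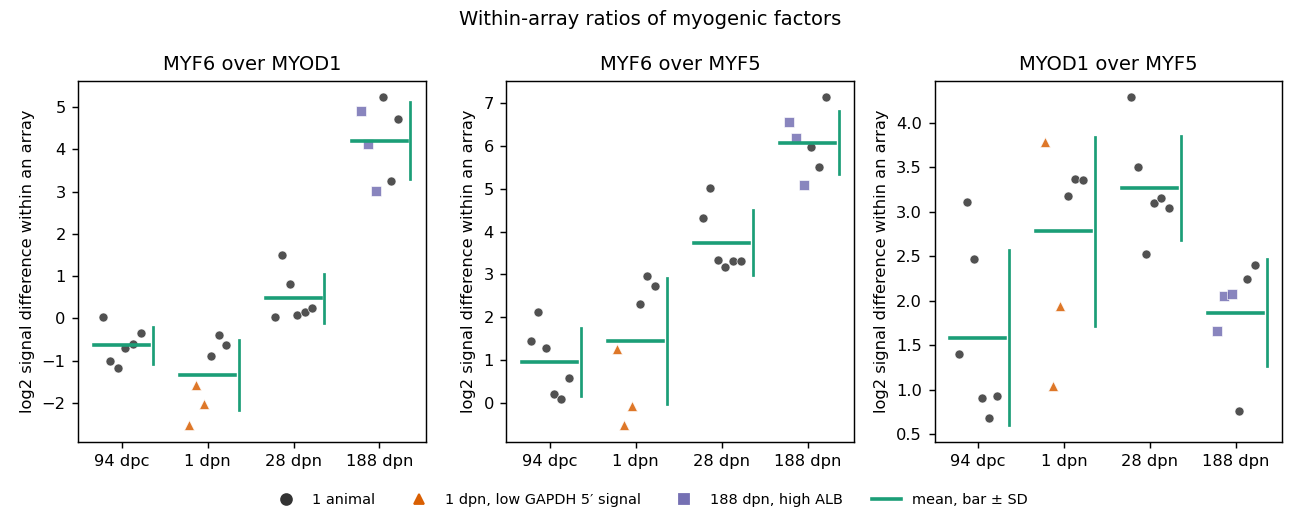
Difference of log2 signal within an array (vertical axis) for MYF6 over MYOD1, MYF6 over MYF5 and MYOD1 over MYF5 at each of 4 stages. Points are animals, with the 1 dpn arrays of low GAPDH 5′ signal as triangles and the 188 dpn arrays of high ALB signal as squares; lines are means of 6 animals with bars ± SD. MYF6 over MYOD1 climbed from a mean of -1.34 at 1 dpn to 4.21 at 188 dpn without overlap between the last 3 stages.

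MEF2A, the partner of the myogenic factors, was lowest at 1 dpn and highest at 188 dpn. The probe set Ssc.19462.1.S1_at read 663 to 1653 at 94 dpc (median 1554), 639 to 1173 at 1 dpn (median 962), 1340 to 1751 at 28 dpn (median 1432) and 2280 to 3135 at 188 dpn (median 2422). The animals of 188 dpn were above all others, and those of 28 dpn were above all those of 1 dpn. The geometric means were 1354 (SD 0.51), 904 (SD 0.37), 1462 (SD 0.15) and 2556 (SD 0.18). MEF2A rose by 0.69 ± 0.21 on the log2 scale from 1 to 28 dpn (adjusted p = 0.0187) and by 0.81 ± 0.21 from 28 to 188 dpn (adjusted p = 0.00942), or 1.75-fold. The second rise was 1.08 with centred arrays, but 0.70 (adjusted p = 0.116) without the 3 arrays of high ALB signal, when the call was lost. Between 94 dpc and 188 dpn it rose by 0.92 ± 0.21 (adjusted p = 0.000921).

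The step of MEF2A at birth was weak in 1 probe set and larger in the other. In the brighter one the fall of 0.58 (SE 0.21, adjusted p = 0.0342) was lost with quantile normalization (-0.52, adjusted p = 0.0717), with centred arrays (-0.26, adjusted p = 0.374) and in 8 of 12 fits that left out 1 animal (94 dpc animals 1, 2, 3, 5 and 6 and 1 dpn animals 3, 4 and 6), with the difference between -0.79 and -0.48 over all 12. The fetus called animal 4 read 663 where the other 5 read 1430 to 1653. The second probe set, Ssc.12654.2.A1_at, stood at 613 (SD 0.58), 236 (SD 0.84), 755 (SD 0.17) and 1543 (SD 0.24), and fell by 1.38 at birth (SE 0.30, adjusted p = 0.00136). At 1 dpn the 3 arrays of low 5′ signal read 137 to 145 on it and the other 3 read 313 to 499, and without the former the fall was -0.64 (adjusted p = 0.0868). Its rise of 1.68 from 1 to 28 dpn was kept without them, at 0.94 (adjusted p = 0.0247). The log2 values of the 2 probe sets had a Pearson correlation of 0.85 over 24 arrays.

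MSTN, which encodes myostatin, had its lowest signal on the first day after birth. The probe set Ssc.335.1.S2_at read 74.7 to 388 at 94 dpc (median 257), 7.87 to 56.9 at 1 dpn (median 43.1), 77.0 to 339 at 28 dpn (median 175) and 138 to 386 at 188 dpn (median 232). All 6 arrays of 1 dpn were under background and no array of the other stages was, 1 fetus reading just above that level, so that 1 dpn did not overlap with any of them. The geometric means were 223 (SD 0.84), 30.1 (SD 1.11), 175 (SD 0.69) and 233 (SD 0.49). With 1 dpn held at the background level, MSTN was at least 2.99-fold higher at 94 dpc, at least 2.34-fold higher at 28 dpn and at least 3.11-fold higher at 188 dpn. The fitted differences, which use the readings under background, were -2.89 ± 0.46 from 94 dpc to 1 dpn (adjusted p = 4.95e-05) and 2.54 ± 0.46 from 1 to 28 dpn (adjusted p = 0.000405), the latter 1.95 (adjusted p = 0.00652) without the low 5′ arrays.

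This trough was kept under each treatment of the arrays. The fall was -2.57 with centred arrays (adjusted p = 0.000163) and -2.31 when the low 5′ arrays were left out (adjusted p = 0.000821), whose readings were 7.87 to 56.9 against 42.4 to 49.5 for the other 3. Leaving out each animal in turn gave -3.21 to -2.50. The other probe set, Ssc.23498.1.S1_s_at, stood at 166 (SD 0.87), 10.6 (SD 1.56), 115 (SD 0.66) and 136 (SD 0.33). All 6 arrays of 1 dpn were under background on it too, and it fell and rose with adjusted p of 8.68e-06 and 0.000102. It was dimmer, with 1 array under background at 94 dpc and 1 at 28 dpn, and the values of 1 and 28 dpn overlapped. With 1 dpn held at background it was at least 2.22-fold higher at 94 dpc and 1.54-fold higher at 28 dpn. The correlation between the 2 was 0.74 over 24 arrays. The order of the remaining stages was not resolved: 188 dpn and 94 dpc differed by 0.06 ± 0.46 (adjusted p = 0.939, 95% confidence interval from -0.89 to 1.01), and 188 and 28 dpn by 0.41 ± 0.46 (adjusted p = 0.633), or 0.43 (adjusted p = 0.767) without the 3 arrays of high ALB signal.

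ID1, which takes E proteins away from the myogenic factors, ended at its lowest level. Its probe set Ssc.1276.1.S1_at read 3398 to 6288 at 94 dpc (median 5123), 1984 to 4701 at 1 dpn (median 2653), 2563 to 4194 at 28 dpn (median 2912) and 1008 to 1770 at 188 dpn (median 1318). The animals of 188 dpn were all below those of every other stage. The geometric means were 4841 (SD 0.36), 2835 (SD 0.45), 3118 (SD 0.30) and 1311 (SD 0.33). From 28 to 188 dpn ID1 fell by 1.25 on the log2 scale (SE 0.22, adjusted p = 0.000388), or 2.38-fold. The difference was -0.98 with centred arrays and -1.11 without the 3 arrays of high ALB signal. Over the whole span it fell 3.69-fold (adjusted p = 3.06e-07).

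The earlier step of ID1 was less secure, and some endothelial markers fell at the same steps as the gene. The fall of 0.77 from 94 dpc to 1 dpn (SE 0.22, adjusted p = 0.00939) became -0.45 with centred arrays (adjusted p = 0.155) and -0.53 when the low 5′ arrays were left out (adjusted p = 0.145). The stages 1 and 28 dpn differed by 0.14 ± 0.22 (adjusted p = 0.723). ID1 was lower at 28 dpn than at 94 dpc (-0.63 ± 0.22, adjusted p = 0.0333), a call lost with centred arrays (-0.37, adjusted p = 0.264) and in 8 of 12 fits that left out 1 animal (94 dpc animals 1, 3, 4 and 6 and 28 dpn animals 3, 4, 5 and 6), with the difference between -0.74 and -0.56 over all 12. ID1 is also made in blood vessels. The summed intensity of 8 endothelial markers was 7023 to 12371 at 94 dpc, 4094 to 6650 at 1 dpn, 6590 to 9686 at 28 dpn and 3053 to 4075 at 188 dpn. PECAM1, an adhesion molecule of endothelium, stood at 4560, 2139, 3395 and 1062 at the same stages, and with CDH5 gave much of that sum. Of the 8 markers 4 fell at birth (20.7% of all genes did) and 4 from 28 to 188 dpn (14.3%). From 1 to 28 dpn, where ID1 had no called change, 4 rose (13.3%). None went the other way in these steps, while 6 fell and 1 rose over the whole span (30.2% and 19.9%). The part of these cells in the ID1 result was not tested.

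**Figure D4:**
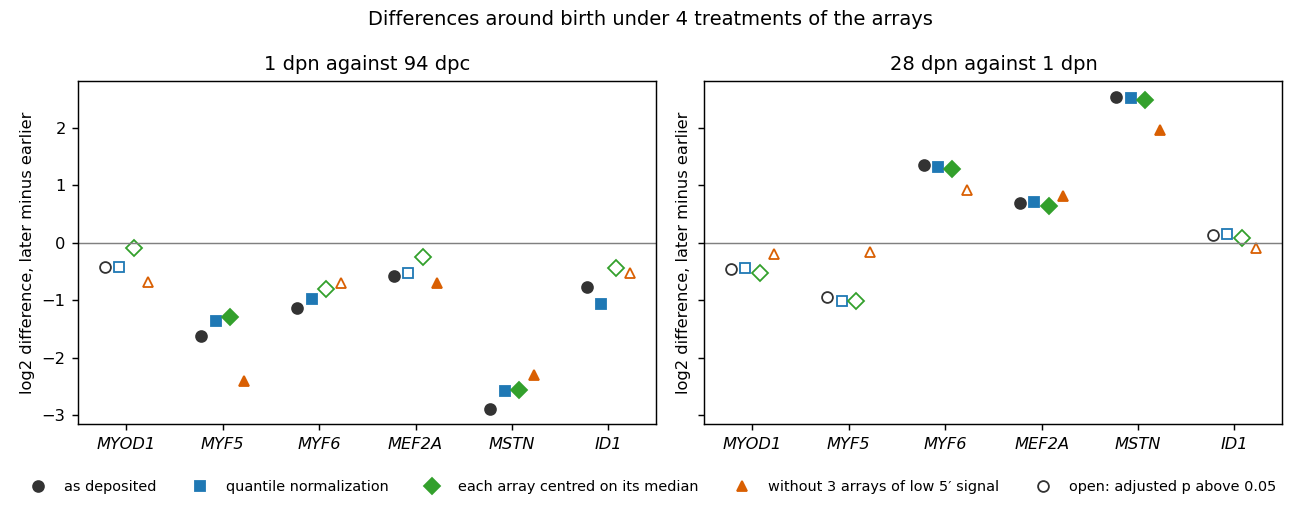
Log2 differences (later minus earlier) of 6 genes for 1 dpn against 94 dpc and 28 dpn against 1 dpn, as deposited, after quantile normalization, after median centring, and with the 3 low 5′ arrays of 1 dpn left out. Open symbols have an adjusted p above 0.05. MYF5 and MSTN kept their fall at birth in all 4 treatments, while MYF6, MEF2A and ID1 lost it in 2.

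Which pairs of genes moved together was described over the 24 arrays, where stage differences dominate. The correlation of log2 signal was 0.82 between MYOD1 and ID1, 0.67 between MYOD1 and MYF5, 0.77 between MYF6 and MEF2A, and -0.79 between MYOD1 and MYF6. After the mean of each stage had been removed, the same pairs stood at -0.0089, -0.03, -0.13 and -0.19. Among the 15 pairs the value farthest from 0 after this step was -0.50, between MEF2A and ID1. The pair MEF2A and ID1 had stood at -0.64 with the stage means in place, and MEF2A and MSTN stood at 0.67 before this step and 0.35 after it. All pairs share the same arrays and their scaling.

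Other genes were ranked by the correlation of their log2 signal with that of each regulator over the 24 arrays, among 5480 genes with a mean above background. MYOD1 was most like ACTA2, the actin of smooth muscle (Pearson correlation 0.95), then RBFOX2, a splicing factor (0.93), and CCDC8 (0.92). MYF5 was most like FAT1, an atypical cadherin (0.92), SRPX2 (0.90) and WDYHV1 (0.89). MYF6 was most like SCAMP3, a membrane protein of vesicle traffic (0.94), CPD, a carboxypeptidase (0.90), and SYNM, an intermediate filament protein of the muscle Z-disc (0.90). SYNM stood at 2720, 734, 4466 and 12498 from 94 dpc to 188 dpn.

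The nearest genes of the remaining regulators came from other groups. MEF2A was most like SMAD4 (0.93), the common partner of the SMAD proteins that carry TGF-β family signals, ACBD5 (0.92) and MED4, a subunit of the Mediator complex (0.92). MSTN was most like ZNF277 (0.92), ITFG1 (0.92) and CLK1, a kinase of splicing factors (0.90). ID1 was most like COL4A2, a collagen of basement membranes (0.92), ID3, its own relative (0.92), and PECAM1 (0.92). Without stage means ID1 and ID3 still had a correlation of 0.80, the highest among these 18 pairs, and MED4 and MEF2A one of 0.74. The lowest were 0.12, between MYOD1 and CCDC8, and 0.20, between MYF6 and CPD. MYOD1 and ACTA2 stood at 0.47.

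Genes that work beside the regulators were read from 6 lists. The lists were chosen with earlier results of these data known, so their counts are a description. Among other myogenic factors and their partners 12 of 30 genes were measured, and 1 rose and 3 fell from 94 dpc to 1 dpn, against 17.1% higher and 20.7% lower of all genes, with a median difference of -0.23 against -0.06 over all genes. MEF2D, another MEF2 protein and the brightest of the list, rose from 2673 to 4412 at 1 dpn (adjusted p = 0.00261) and fell to 2387 at 28 dpn (adjusted p = 0.000819), the reverse of MEF2A. Its rise was 0.46 and no longer called without the low 5′ arrays. MSC, a repressor of myogenic factors also called MyoR, fell from 632 to 218 at birth, a log2 difference of -1.54 ± 0.23 (adjusted p = 2.09e-05).

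In that list 2 genes rose and 3 fell from 1 to 28 dpn, against 13.3% higher and 13.4% lower of all genes. TEAD1, a transcription factor that binds muscle gene promoters, fell from 332 to 174 at birth and rose to 479 at 28 dpn, the first of these a call lost with quantile normalization, with centred arrays and without the low 5′ arrays, and both lost when its probe sets were averaged. BHLHE40, a helix-loop-helix repressor, fell from 237 to 69.0 at birth with 3 of 6 arrays under background (adjusted p = 0.00185) and rose to 178 at 28 dpn (adjusted p = 0.0195). Both BHLHE40 calls were lost without the low 5′ arrays, the rise also without 1 dpn animal 3. HDAC5, a deacetylase that represses MEF2 proteins, fell from 783 to 388 from 1 to 28 dpn (adjusted p = 0.00113). TWIST2, an inhibitor of myogenic factors, fell from 195 at 1 dpn to under background on all 6 arrays of 28 dpn, at least 2.61-fold. Without the 3 arrays of low 5′ signal the list had 0 rises and 1 fall at birth, and 1 rise from 1 to 28 dpn.

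Of the Id family and BMP signalling list 12 of 25 genes were measured. From 28 to 188 dpn 2 fell and none rose, against 14.3% of all genes lower and 6.16% higher. They were ID3, from 3593 to 1477 (-1.28 ± 0.20, adjusted p = 0.00011), and ENG, a TGF-β family co-receptor of endothelium, from 262 to 101. From 94 dpc to 188 dpn 6 fell and 1 rose, against 30.2% lower and 19.9% higher, with a median of -0.76 against -0.19 over all genes. HES1, a repressor downstream of Notch, went from 1201 to 273, BAMBI, a decoy receptor, from 278 to 103, and BMPR1B, a BMP receptor, from 513 to 207.

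Of the myostatin pathway 21 of 35 genes were measured. While MSTN fell from 94 dpc to 1 dpn, 5 of these fell and none rose, against 20.7% of all genes lower and 17.1% higher, and with centred arrays 3 rose. FST, the gene of follistatin, which binds and blocks myostatin, fell from 2759 to 1000 (-1.46 ± 0.22, adjusted p = 3.44e-05) with no overlap. TGFBR1, a type I receptor that myostatin can use, fell from 778 to 316 (adjusted p = 0.00117), a call lost when its probe sets were averaged. ACVR2A, a type II receptor, was under background on 3 of 6 arrays at 94 dpc and on all 6 at 1 dpn, so no fold is given. TGFB3, a related ligand, fell from 764 to 320 (adjusted p = 0.0238), a call lost without 1 dpn animal 1 or 5, without the low 5′ arrays, after centring and after quantile normalization. DCN, the gene of decorin, a matrix proteoglycan that binds TGF-β and the brightest of the list, read 22711 and 18289 (adjusted p = 0.294).

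From 28 to 188 dpn, when MSTN showed no called change, 3 of the 21 genes of the pathway rose and 5 fell, against 6.16% higher and 14.3% lower of all genes. FBXO32, the ubiquitin ligase atrogin-1 that acts in muscle protein breakdown, rose from 611 (SD 0.20) to 6839 (SD 0.52), or 11.2-fold (adjusted p = 1.12e-05), with no overlap. BMP1, a protease that can release active myostatin from its propeptide, fell from 445 to 156 (adjusted p = 6.17e-06), and TGFB1 fell from 228 to 96.7 (adjusted p = 0.00155). TGFBR3, a co-receptor, went from 83.1 to 23.2 with 2 and 3 of 6 arrays under background (adjusted p = 0.0421), a call lost in 8 of 12 fits that left out 1 animal and in both rescalings. Without the 3 arrays of high ALB signal 1 rose and 2 fell, and 2 fell after centring or quantile normalization.

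Of the myoblast differentiation and fusion list of 33 genes, 12 were measured, and 7 fell and 3 rose from 94 dpc to 188 dpn, against 30.2% lower and 19.9% higher of all genes. TNNT2, the cardiac troponin T, went from 3041 to 68.0 a mean under background with 3 of 6 arrays below it (adjusted p = 1.75e-09), so that the size of its fall is not resolved. ACTC1, the cardiac actin, fell from 33342 to 1149 (29.0-fold), MYL4, the embryonic and atrial light chain, from 6286 to 251 (25.1-fold), and CHRNA1, a subunit of the acetylcholine receptor, from 701 to 76.9. CKM, the muscle creatine kinase and the brightest of the list, rose from 36644 to 64561 (adjusted p = 3.9e-05). After quantile normalization none of the list rose.

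Satellite cell and Notch genes were mostly lower at 188 dpn than at 94 dpc. Of 28 genes 10 were measured, and 7 fell from 94 dpc to 1 dpn, 6 from 28 to 188 dpn and 8 from 94 dpc to 188 dpn, against 20.7%, 14.3% and 30.2% of all genes. From 1 to 28 dpn 1 rose and 2 fell, against 13.3% higher and 13.4% lower of all genes. None rose in the other 3 comparisons as deposited, but 2 rose at birth with centred arrays and 1 after quantile normalization. CAV1, the gene of caveolin 1 and the brightest of the list, fell from 8746 to 5104 over the whole span (adjusted p = 0.00095), a call lost with centred arrays. CXCR4, a chemokine receptor of migrating precursors, went from 2800 (SD 0.09) to 392 (SD 0.63) over the whole span, and VCAM1, an adhesion molecule of satellite cells, from 5225 to 1071. FGFR1 fell from 1964 to 376, and CALCR, the calcitonin receptor of quiescent satellite cells, from 778 to 44.6 with 4 of 6 arrays under background. Several of the list, CD34, VCAM1 and CXCR4 among them, are also made in blood vessels, whose 8 markers fell in 6 and rose in 1 over the same span. The part of those cells was not tested.

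Most MEF2 targets and coregulators were higher at 188 dpn than at 94 dpc, as MEF2A was. Of 24 genes 20 were measured, and 14 rose and 2 fell from 94 dpc to 188 dpn, against 19.9% higher and 30.2% lower of all genes, with a median of 1.12 against -0.19. PFKM, the muscle phosphofructokinase, rose from 3917 to 49735, or 12.7-fold, and PYGM, the muscle glycogen phosphorylase, from 6656 to 49588 (7.45-fold). XIRP2, a protein of intercalated discs and myotendinous junctions, rose from 2620 to 16845, HSPB7, a small heat shock protein, from 572 to 2778, and MYOZ1, a Z-disc protein that binds calcineurin and the brightest of the list, from 21625 to 62012. From 94 dpc to 1 dpn 6 rose and 2 fell (10 and 1 with centred arrays), against 17.1% higher and 20.7% lower of all genes. From 1 to 28 dpn 8 rose and 3 fell, against 13.3% and 13.4%. The last step had 3 rises and no fall from 28 to 188 dpn (1 rise without the high ALB arrays), against 6.16% and 14.3%. Skeletal muscle markers also rose over the whole span, in 7 of 8 genes, against 19.9% of all genes. The part of MEF2A or of muscle content in the rises of the list was not tested.

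**Figure D5:**
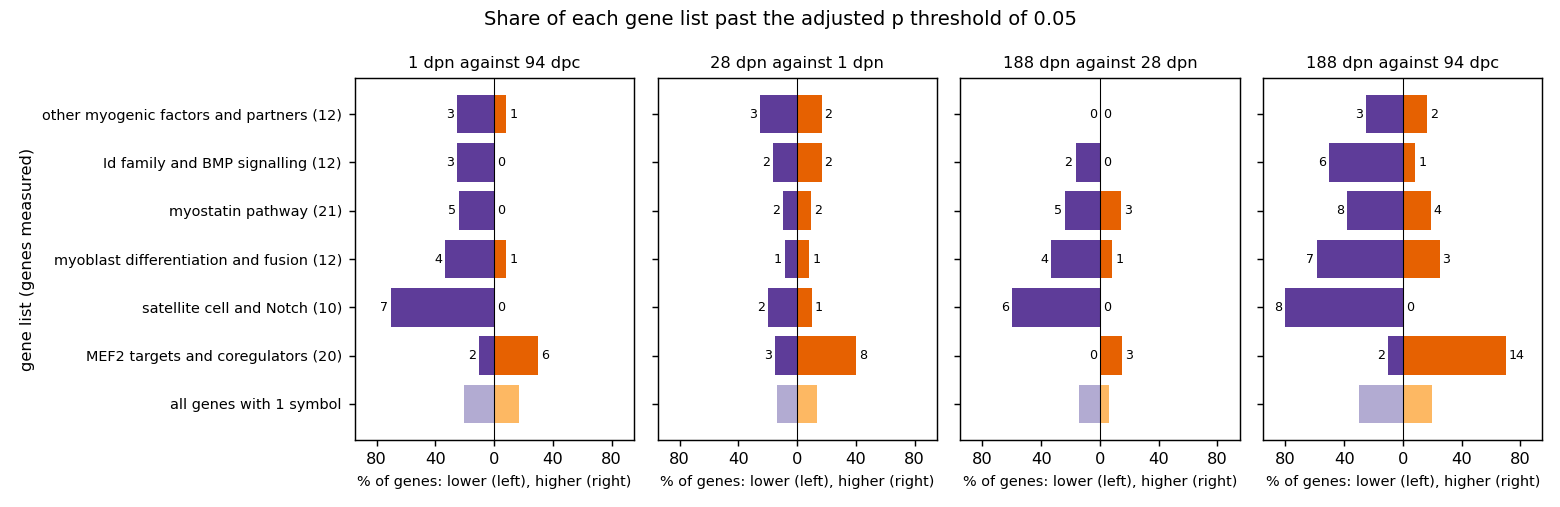
Share of the measured genes of 6 lists that passed an adjusted p of 0.05 (horizontal axis, percent), lower to the left and higher to the right, in 4 comparisons, with all genes with a symbol as the bottom bar. Numbers at the bars count genes. Satellite cell and Notch genes had 8 of 10 lower, and MEF2 targets and coregulators 14 of 20 higher, at 188 dpn against 94 dpc.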

How the data were processed

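Total RNA of 24 samples was hybridised to Affymetrix Porcine Genome arrays, 1 per animal. The deposited values are linear signal intensity, 1 per probe set and array, made with GCOS 1.1.1 per the submitters' processing notes. Trimmed of 2% at either end, array means were 498 to 499, so the authors had scaled them; the scaling and summary settings are not given in the sources used here. Low values, on which the log scale spreads noise, were used as deposited in the fits, correlations and ratios. The background level of 74.7 entered only the counts of arrays under it and the means and folds said to be held at it. It also set which genes were ranked for likeness. The number of arrays limits the precision.

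The 183 control probe sets were left out, 23935 were kept, and log2 was taken without a constant. Symbols come from the platform annotation of 2016: 10069 probe sets have 1 symbol, 198 several and 13668 none. All 10 probe sets of the group matched the reference gene table. The brightest probe set stands for a gene. limma 3.58.1 (R 4.3.3) fitted 4 stage means on all arrays (20 residual degrees of freedom, lmFit and eBayes, two-sided). P-values were adjusted by Benjamini-Hochberg across the 23935 probe sets, with 0.05 as threshold; the code was tested on simulated data. A call stands for an adjusted p at or below it. Ratios within an array are a description.

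All probe sets of the group are named; from each list the brightest gene and up to 4 called genes with the widest difference; and for likeness 3 genes per regulator. The members and lists were chosen with earlier results of these data known, as were the background level and the arrays left out. Alternatives are quantile normalization, median centring, 16 or 64 added before log2, no dimmest 30% of probe sets, trend and robust eBayes, 2 stages only, averaged probe sets and arrays left out. Sample labels, given in no pairs, set the groups; animal numbers only name samples. No sequence was used.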

Additional observations from a re-analysis of the deposited data

Results flagged for a closer look

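In 4 of 40 groups of 6 animals (10 probe sets at 4 stages) 1 animal stood far from the rest, its gap to the nearest animal, as a share of the range of the group, passing the 95% critical value of Dixon's test; chance gives about 1 in 20 such groups. MYOD1 read 1505.5 in 28 dpn animal 1 on Ssc.22906.1.A1_at, where the others read 843 to 953. MEF2A read 662.6 in 94 dpc animal 4 on Ssc.19462.1.S1_at, where the others read 1430 to 1653. MSTN read 74.672 in the same fetus on Ssc.335.1.S2_at, where the others read 211 to 388. MSTN read 47.837 in 28 dpn animal 3 on Ssc.23498.1.S1_s_at, where the others read 114 to 176.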

How the results depend on the processing

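Of 792 alternatives for differences of the brightest probe sets, 754 kept direction and side of the threshold, 31 lost the call, 1 gained it and 6 changed sign. Each difference had 22 alternatives, of which 12 left out 1 animal and so stayed close to the main fit. Differences without a call in the main fit are counted too. The count of regulators changed from 94 dpc to 1 dpn went from 5 to 2 with centred arrays and to 3 without the 1 dpn arrays of low 5′ signal. Without those arrays 3088 probe sets changed from 1 to 28 dpn, and 3091 with only these 2 stages fitted, against 4945. From 28 to 188 dpn 2072 changed without the arrays of high ALB signal, against 3498. The cause was not tested.

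Among these results, only MYF6 at birth was a called difference that changed sign: it was 0.29 with its probe sets averaged. MEF2A at 28 dpn against 94 dpc was -0.10 to 0.17 with an animal left out, the former without 94 dpc animal 4. MSTN at 188 dpn against 94 dpc was -0.26 without the same fetus, -0.09 without 188 dpn animal 1, at most 0.22 with another animal left out, and -0.11 with averaged probe sets. ID1 at 28 against 1 dpn was -0.10, and MYOD1 over MYF5 -0.035, without the low 5′ arrays. DCN, decorin, the brightest of the myostatin list, was 0.013 and 0.60 at birth and 0.10 and 0.46 from 28 to 188 dpn with centring and averaging. The dim MYF6 probe set, 188 against 28 dpn, was 0.20 with quantile normalization, 0.17 with centring, 0.23, 0.13 and 0.15 without 28 dpn animals 1, 3 and 4, and 0.26 without 188 dpn animal 5, with -0.48 as the lowest value without an animal. The dim MSTN probe set was -0.0074 without 28 dpn animal 3 in that comparison, and up to 0.37 without another, and 0.23 and 0.25 with quantile normalization and centring at 188 dpn against 94 dpc.

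Leaving out each animal in turn gave 4 to 5 regulators changed at birth and 6566 to 7475 probe sets; 3 regulators and 4265 to 5388 from 1 to 28 dpn; 4 and 2817 to 3160 from 28 to 188 dpn; and 5 and 8983 to 9284 from 94 dpc to 188 dpn. No paired analysis was possible because the labels give no replicate numbers shared between stages. Signals near background limit MYF5 after birth, MSTN at 1 dpn and the dim probe sets.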
